A study of Mus musculus with 4 samples.

Results

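High endothelial venules are the blood vessels through which lymphocytes leave the blood and enter a lymph node. Their endothelial cells carry sialomucins whose O-linked sugars are sulfated, sialylated and fucosylated, and passing lymphocytes bind these sugars and start to roll. Chemokines held on the vessel wall and lysophospholipids made beside it then help the cells to stop and cross, and lymphotoxin signals from the node keep the vessels in this state. The 10 genes followed here were chosen by name for these steps: Glycam1, Chst4, Chst2, Fut7, Fut4, Selp, Sele, Ackr1, Enpp2 and B3gnt3. Every probe whose transcript accession belongs to one of these genes in RefSeq was taken, which gave 13 probes of the 41174 on the array, with at least 1 probe for each of the 10 genes of the 17178 named ones. Of the 13 probes, 11 passed the filter on dim probes, which asked that at least 3 of 4 arrays read a probe well above background in one and the same channel. They covered 9 of the 10 genes, all except Sele.

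The study compared 2 lymph nodes of the pancreas, gastric and pancreatico-duodenal, in 12-week-old female NOD mice. NOD is an inbred strain that develops autoimmune diabetes spontaneously, and the labels name no treatment. Both nodes of each of 4 mice were hybridised together on 1 array, gastric node RNA in red (Cy5) and pancreatico-duodenal node RNA in green (Cy3), so a positive log2 ratio means a higher level in the gastric node of that mouse. Without a dye swap, dye and node cannot be told apart. All 4 arrays lay on 1 slide.

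Between 67.1% and 71.4% of probes were well above background for the gastric nodes, against 59.6% to 62.6% for the pancreatico-duodenal nodes. Saturation affected 0 spots. Precision was limited by having 4 arrays. Genes of T cells (12 of 12) and B cells (12 of 12) were measured above background in both nodes, as in lymph node tissue. In mouse 3 the exocrine pancreas genes stood apart, with a list median log2 ratio of -4.69 against -0.33, 0.21 and 0.76 in mice 1, 2 and 4, so means without mouse 3 are given below for Glycam1, Fut7 and Enpp2, and for Emcn, Cxcl12 and Nr2f2. The adipocyte median also differed widely between mice, at 1.63, -1.47, 0.32 and -1.38 in mice 1 to 4. In whole nodes, fewer cells of a type and less RNA per cell cannot be told apart.

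None of the 11 kept probes passed the test (limma, adjusted p under 0.05), against 7.92% of all 27603 kept probes (2.99% higher and 4.92% lower). At an unadjusted p under 0.05 there were 2, Glycam1 and B3gnt3, against 30.3% of all probes. The mean log2 ratio was above 0 for 4 probes and below 0 for 7. The sign was the same in 4 of 4 mice for 6 of the 11, against 40.8% of all kept probes. The members were thus called no more often than the array as a whole. The interval of each mean is drawn in the plot of log2 ratios by mouse, and most are also given below. Each holds for this processing only and does not limit the difference under another. With the scanner software's own ratio the B3gnt3 mean was -0.68, outside its interval of -0.30 to -0.06. With median centring, another normalization described below, Glycam1 (1.25) and Fut7 (0.64) lay above their intervals.

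**Figure D1:**
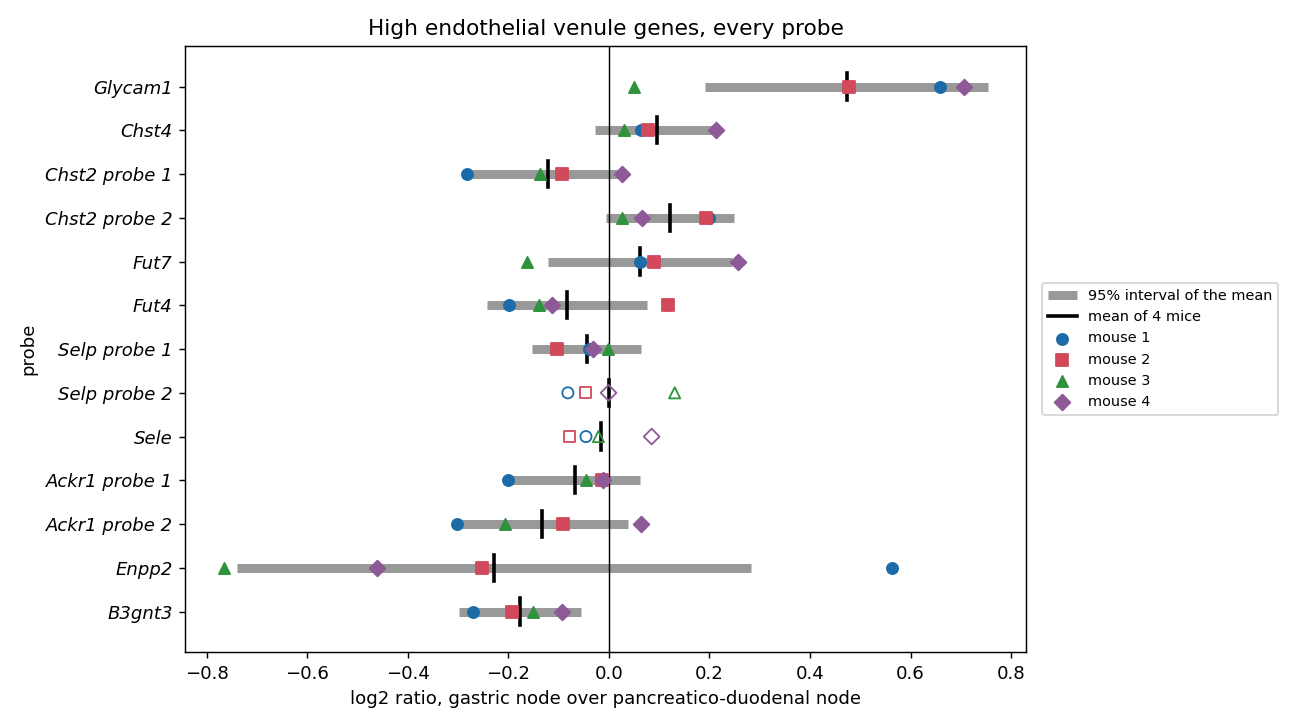
Log2 ratio of gastric over pancreatico-duodenal node for all 13 probes of the 10 genes, with 1 symbol per mouse, the mean as a black line and its 95% interval from limma as a grey bar. Open symbols mark the 2 probes that did not pass the filter, and where a gene has 2 probes they are numbered by intensity. Only the bars of Glycam1 and B3gnt3 lie clear of 0, and Enpp2 has the widest spread, from -0.77 to 0.56.

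Glycam1 encodes a secreted sialomucin, the best known scaffold of the sugar ligand of rolling lymphocytes in peripheral node vessels. Its log2 ratio was 0.66, 0.48, 0.05 and 0.71 in mice 1 to 4. The gastric node read higher in mice 1, 2 and 4, while both nodes of mouse 3 read nearly the same. The mean was 0.47 ± 0.30 (SD, n = 4), a 1.39-fold higher level with a 95% interval from 1.14-fold to 1.69-fold, and it did not pass after adjustment (adjusted p = 0.0600).

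The normalized log2 intensity of Glycam1 was 15.93, 15.86, 15.15 and 16.05 in the gastric nodes of mice 1 to 4, against 15.27, 15.38, 15.10 and 15.35 in their pancreatico-duodenal nodes. The gastric nodes spread more, at 15.75 ± 0.40, than the pancreatico-duodenal nodes, at 15.28 ± 0.12 (SD, n = 4 each), and the low gastric value was that of mouse 3. Without mouse 3 the mean log2 ratio was 0.61 (adjusted p = 0.0728). The very brightest probes were higher in the gastric node. The 123 kept probes with a mean log2 intensity from 15 to 16, where Glycam1 lies at 15.5, had a median log2 ratio of 0.04, and the 99 above 16 had a median of 0.24. The part of brightness in the Glycam1 ratio was not tested. Glycam1 had the highest log2 ratio of the 11 kept probes in 4 of 4 mice.

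**Figure D2:**
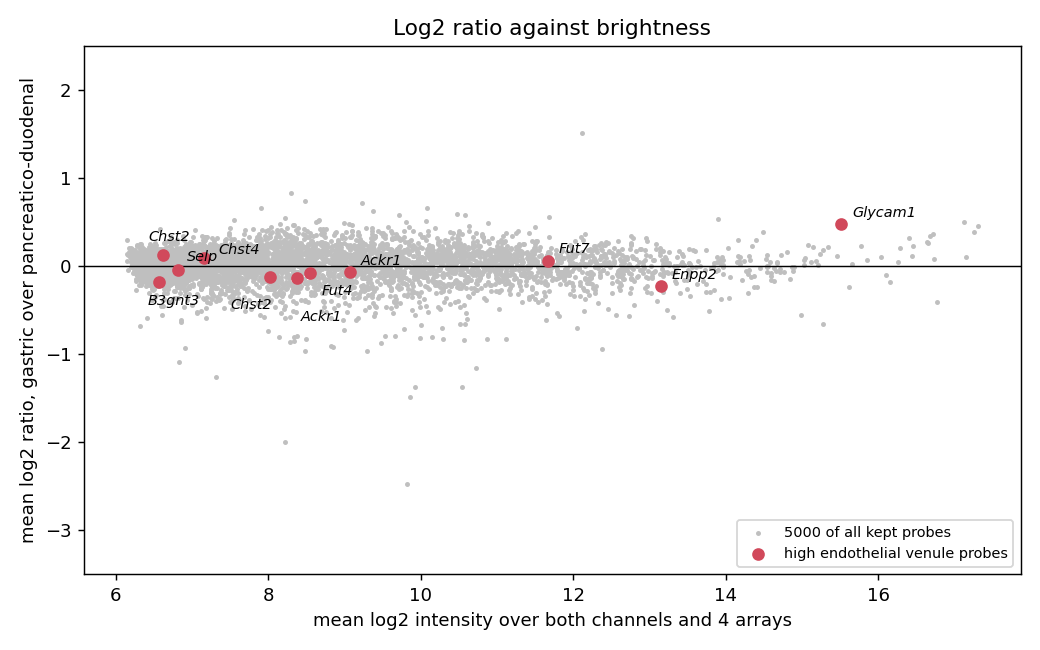
Mean log2 ratio over 4 mice against mean log2 intensity, for the 11 kept high endothelial venule probes (red) and a random draw of kept probes (grey). Glycam1 is the brightest of the 11 and the one farthest above 0, in a range where few probes lie.

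Chst4 and Chst2 encode sulfotransferases that add sulfate to N-acetylglucosamine in this sugar ligand, and Chst4 is largely restricted to high endothelial cells. The Chst4 log2 ratio was 0.06, 0.08, 0.03 and 0.21 in mice 1 to 4. All 4 values were above 0 and 3 of them were close to it. The mean was 0.10 ± 0.08 (SD, n = 4; adjusted p = 0.252), and its interval ran from 0.981-fold to 1.16-fold. Chst2 had 2 probes, with means of opposite sign. The brighter probe was at -0.28, -0.09, -0.14 and 0.03 in mice 1 to 4, with a mean of -0.12 ± 0.13 (SD, n = 4; adjusted p = 0.240). The dimmer probe was at 0.20, 0.19, 0.03 and 0.07, with a mean of 0.12 ± 0.09 (SD, n = 4; adjusted p = 0.180). Mouse 1 gave the lowest value of the brighter probe and the highest of the dimmer one, so the 2 probes of Chst2 support no direction.

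Fut7 and Fut4 encode the fucosyltransferases that put fucose on selectin ligands, in high endothelial cells and also in leukocytes, and Fut7 does so after sialylation. Fut7 was at 0.06, 0.09, -0.16 and 0.26 in mice 1 to 4, lower in the gastric node of mouse 3 and higher in that of the other mice. Its mean log2 ratio was 0.06 ± 0.17 (SD, n = 4; adjusted p = 0.603), with an interval from 0.919-fold to 1.18-fold. Without mouse 3 the Fut7 mean was 0.14 (adjusted p = 0.248), and without mouse 4 it was -0.0036 (adjusted p = 0.982), so its sign rested on mouse 4. Fut4 was at -0.20, 0.12, -0.14 and -0.11, with mouse 2 alone above 0. Its mean was -0.08 ± 0.14 (SD, n = 4; adjusted p = 0.417), with an interval from 0.845-fold to 1.05-fold.

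B3gnt3 encodes the N-acetylglucosaminyltransferase that extends the O-linked branch on which the sulfated cap is built. Its log2 ratio was below 0 in every mouse, at -0.27, -0.19, -0.15 and -0.09 in mice 1 to 4. The mean log2 ratio was -0.18 ± 0.07 (SD, n = 4), a 1.13-fold lower level, and it did not pass (adjusted p = 0.0786). The probe was dim. Its mean signal, background included, was 99.3, 95.5, 82.0 and 93.2 in the gastric nodes of mice 1 to 4. In the pancreatico-duodenal nodes it was 79.1, 84.3, 75.7 and 71.5. The background was 47, 35, 39.5 and 44 in the red channel, against 23, 20, 20 and 21 in the green one. The uncorrected signals alone therefore do not order the nodes. With the scanner software's own ratio, which applies no offset to dim signals, the mean was -0.68 and passed (adjusted p = 0.0462). It also passed, at -0.24, without background correction (adjusted p = 0.0457).

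Selp and Sele encode P-selectin and E-selectin, adhesion receptors that endothelium shows in inflammation, and P-selectin is also stored in platelets. The probe of Selp that passed the filter is printed 10 times on each array and gave -0.04, -0.10, -0.00079 and -0.03 in mice 1 to 4. Its mean log2 ratio of -0.04 ± 0.04 (SD, n = 4; adjusted p = 0.528) had an interval from 0.900-fold to 1.05-fold. The SD between its single spots within an array was 0.043 to 0.074. The SD between mice was 0.043, but each mouse's value averages 8 to 10 spots, so the 2 SDs cannot be compared directly. The other Selp probe was well above background on 2 of 4 gastric node arrays and on 0 of 4 pancreatico-duodenal node arrays. Its values ran from -0.08 to 0.13. Sele was not well above background on any array in either node, with mean signals of 48.0 to 53.9 in the gastric nodes and 44.8 to 47.5 in the pancreatico-duodenal nodes, so no level or fold is given for it. Among platelet genes, 2 of 8 measured were lower in the gastric node and 0 were higher (list median -0.15). These were Itga2b, the integrin alpha IIb gene, at -1.30 ± 0.36 and Clec1b, which encodes the podoplanin receptor of platelets, at -0.80 ± 0.13. Pf4, a platelet chemokine gene, was at 0.23 ± 0.42 and did not pass (SD, n = 4 each). Of all kept probes, 4.92% were called lower. The part of platelets in these ratios and in that of Selp was not tested.

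Ackr1 encodes an atypical chemokine receptor of venular endothelium and red cells. The means of both of its probes were below 0, and above 0 (0.37 and 0.23) with median centring, which moved the median of all kept probes to 0.29. The brighter was at -0.20, -0.01, -0.05 and -0.01 in mice 1 to 4, and the dimmer at -0.30, -0.09, -0.21 and 0.06. In both, mouse 1 was lowest and mouse 4 highest, but mice 2 and 4 were nearly equal on the brighter probe (-0.0128 and -0.0119). The means were -0.07 ± 0.09 (adjusted p = 0.417) and -0.13 ± 0.16 (adjusted p = 0.250; SD, n = 4 each), with intervals from 0.873-fold to 1.04-fold and from 0.809-fold to 1.03-fold. Red cell genes differed much more between mice, with a list median over 5 measured genes of 1.60, 0.12, 0.13 and 1.61 in mice 1 to 4. The part of red cells in the Ackr1 ratios was not tested.

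Enpp2 encodes autotaxin, the secreted enzyme that makes lysophosphatidic acid at these vessels, and it is also made by stromal cells and adipocytes. It was the member with the largest spread. Its log2 ratio was 0.56, -0.25, -0.77 and -0.46 in mice 1 to 4. The normalized log2 intensity was 13.46, 13.16, 12.66 and 12.86 in the gastric nodes, against 12.90, 13.41, 13.43 and 13.32 in the pancreatico-duodenal nodes. Mouse 1 was the reverse of the other 3 in both nodes, with the highest gastric and the lowest pancreatico-duodenal value. The mean log2 ratio of -0.23 ± 0.57 (SD, n = 4; adjusted p = 0.486) left a wide interval, from 0.598-fold to 1.22-fold. Without mouse 1 the mean was -0.49 and passed (adjusted p = 0.0360), and without mouse 3 it was -0.05 (adjusted p = 0.891). In the same mice the fibroblastic stroma median was -0.0024, -0.31, -0.69 and -0.52, the lowest again in mouse 3 and the highest in mouse 1. The adipocyte median given above was highest in mouse 1 as well, but second highest in mouse 3, where Enpp2 was lowest. The part of these cells in the Enpp2 ratio was not tested.

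**Figure D3:**
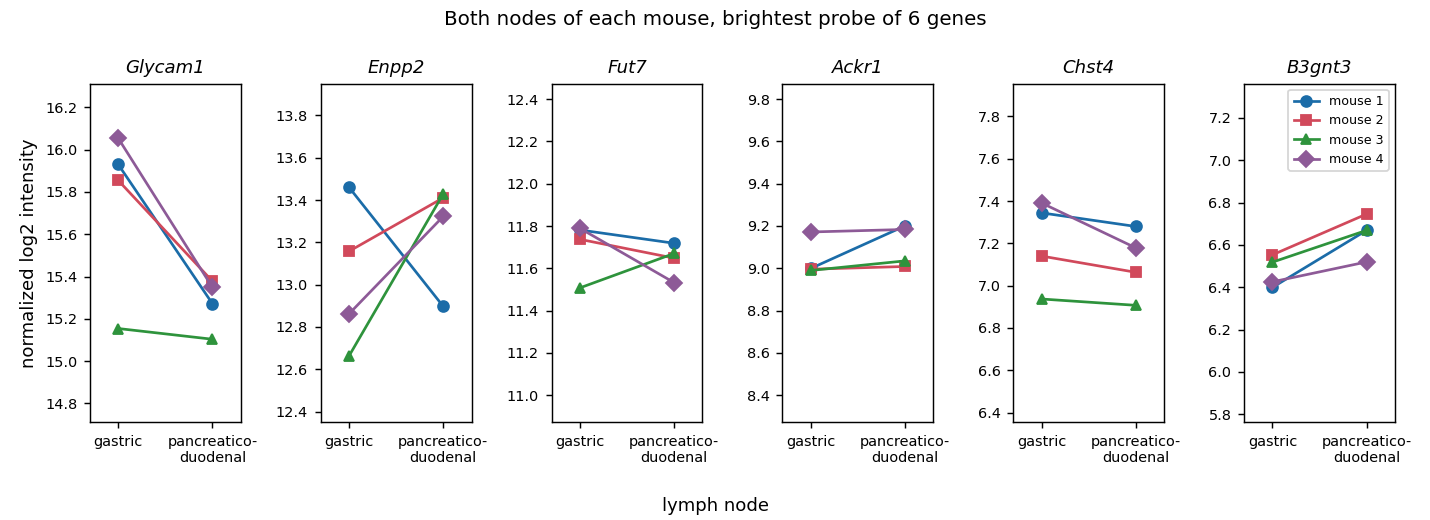
Normalized log2 intensity (after loess and Aquantile) in the gastric node, left, and the pancreatico-duodenal node, right, of each mouse for the brightest probe of 6 genes, with 1 line per mouse. Each panel spans the same log2 range around its own centre, and levels of different panels are not comparable. Glycam1 falls to the right in mice 1, 2 and 4, and Enpp2 crosses, with mouse 1 alone falling.

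Ordered by their mean log2 ratio, the kept probes ran from Glycam1 through the dimmer Chst2 probe, Chst4, Fut7, Selp, the brighter Ackr1 probe, Fut4, the brighter Chst2 probe, the dimmer Ackr1 probe and B3gnt3 to Enpp2. In each of the 10 neighbouring pairs the ranges of mean ± SD overlapped. The step from Glycam1 to the next probe was 0.35, and Glycam1 was the higher of the pair in 4 of 4 mice. No other step was larger than 0.11. Of the 11 kept probes, 9 had an SD between mice under 0.2, all but Glycam1 and Enpp2. Mouse 3 had the lowest median of the kept probes, at -0.14 with 8 of 11 below 0, against -0.04, -0.01 and 0.03 in mice 1, 2 and 4.

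The blood endothelium list had 5 of 20 measured genes lower in the gastric node and none higher. Among all kept probes, 4.92% were called lower and 2.99% higher. The median log2 ratio of the list was -0.28, against -0.07 for the brightest probes of the 9 measured high endothelial venule genes. For all kept probes the median was 0.02, and the list is described further here. Among its called genes were the receptor gene Tie1 (-0.58 ± 0.07), Plvap, a gene of endothelial diaphragms (-0.54 ± 0.18), the co-receptor gene Eng (-0.47 ± 0.17) and the matrix gene Mmrn2 (-0.40 ± 0.18; SD, n = 4 each), and Pecam1, an endothelial junction gene, was at -0.25 ± 0.18 and did not pass. Egfl7, which encodes a factor secreted by endothelium, was at -0.19 ± 0.24 (SD, n = 4) and did not pass either. Cdh5, which encodes VE-cadherin, was at -0.01 ± 0.21 on its brightest probe and at -0.38 on a further one that passed (adjusted p = 0.0258). The list median was -0.03, -0.19, -0.47 and -0.31 in mice 1 to 4, against -0.04, -0.01, -0.14 and -0.01 for the venule genes.

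Each array was therefore also centred on its blood endothelium median and tested again. That median was below 0 in every mouse, so centring raised every probe on every array, most in mouse 3 (median -0.47). After it 4 of the 11 probes passed, all higher in the gastric node relative to that median, but so did 53.1% of all kept probes (51.7% higher and 1.39% lower). The same 4 had an unadjusted p under 0.05 and a single sign in 4 mice, against 62.0% and 56.7% of all kept probes, so this share does not set the venule genes apart from the rest of the array. The probes that passed were Glycam1 at 0.72 ± 0.21 (adjusted p = 2.26e-06), the dimmer Chst2 probe at 0.37 ± 0.11 (adjusted p = 0.00824), Chst4 at 0.35 ± 0.20 (adjusted p = 0.0136) and Fut7 at 0.31 ± 0.19 (adjusted p = 0.0241; SD, n = 4 each). Relative to the vessel median Glycam1 was at 0.69, 0.67, 0.52 and 1.02 in mice 1 to 4. Mouse 3 lay nearer to the other mice than before, which follows from its array being raised the most. The brighter Chst2 probe, at 0.13 ± 0.28 (SD, n = 4; adjusted p = 0.331), did not pass, so Chst2 again passed on its dimmer probe only. Enpp2 and B3gnt3 were at 0.02 ± 0.39 and 0.07 ± 0.25 on this scale (SD, n = 4 each) and did not pass. The limma interval ran from 0.49 to 0.96 for Glycam1, 0.14 to 0.61 for the dimmer Chst2 probe and -0.22 to 0.26 for Enpp2. These widths were nearly equal, although the SDs of 0.21, 0.11 and 0.39 were not. The adjusted p values on this scale therefore hardly use each gene's own spread between mice. The error of the subtracted median, which all probes of an array share, was not tested. Without mouse 2 and without mouse 4 Glycam1 alone passed, and with median centring Glycam1 and Fut7 passed as higher and B3gnt3 as lower.

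Of 40 genes taken from the vessel pathway lists, blood endothelium and the fixed set, 14 passed. Some of the 40 were picked for being called, so this count cannot be set against the 7.92% of all kept probes. All 14 calls were lost without mouse 2, without mouse 3 and without mouse 4, where 0, 5 and 3 of all kept probes were called. They were also lost with arrays scaled to a common spread and with the trend and robust variance model, where 0 of all kept probes were called. Median centring moved the median of all kept probes to 0.29. There the means of Madcam1, Icam1, Cd99, Sgpl1, Ltbr, Plvap, Eng and Mmrn2 lay above 0 (0.02 to 0.32). With that shift of the median (0.02 to 0.29) subtracted, Icam1 (-0.19), Plvap (-0.22), Eng (-0.25), Ltbr (-0.12) and Mmrn2 (-0.03) were again below 0. Madcam1 (0.0059), Cd99 (0.04) and Sgpl1 (0.05) were not below 0.

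Of 7 measured genes of other sialomucins that can carry this sugar ligand, 3 were lower in the gastric node, none higher. They were Podxl, the podocalyxin gene (-0.30 ± 0.05), its relative Podxl2 (-0.26 ± 0.09) and Madcam1, the vessel ligand of gut-homing lymphocytes (-0.25 ± 0.09; SD, n = 4 each), with adjusted p values of 0.0278, 0.0445 and 0.0484. Each of them was below 0 in 4 of 4 mice. The Podxl and Podxl2 probes were dim, with a mean log2 intensity of 6.99 and 6.48, against 6.56 for B3gnt3 and 10.5 for Madcam1. Of all kept probes, 4.92% were called lower. A further Podxl probe was at -0.09 and did not pass. Cd34, the broad endothelial and progenitor sialomucin, was at 0.27, 0.0023, -0.19 and 0.06 in mice 1 to 4 and Emcn, the endomucin gene, at 0.36, -0.16, -0.87 and -0.23. Neither passed, and mouse 3 was lowest and mouse 1 highest in both. Without mouse 3 the Emcn mean was -0.0083, against -0.22 with it. Spn, the leukocyte sialomucin gene, was at 0.18 ± 0.22 (SD, n = 4) on its brightest probe and at -0.09 on a further one, and neither passed.

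Of 18 measured genes of the glycosylation of this ligand outside the chosen 10, 1 was higher and 0 were lower. This was B3gnt2, which makes N-acetyllactosamine chains, at 0.30, 0.19, 0.17 and 0.22 in mice 1 to 4 (mean 0.22 ± 0.06, SD, n = 4; adjusted p = 0.0471). A further B3gnt2 probe was at 0.04 and did not pass. The galactosyltransferase gene B4galt1 (0.20 ± 0.05), the branching enzyme gene Gcnt1 (0.16 ± 0.09) and the GDP-fucose transporter gene Slc35c1 (-0.10 ± 0.08; SD, n = 4 each) did not pass. The list median was -0.01, and the 1 higher gene of 18 stands beside 2.99% of all kept probes called higher.

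None of 9 measured genes of chemokines and their presentation at the vessel passed on its brightest probe. Ccl21a, the main homing chemokine gene, was at -0.14, 0.13, -0.18 and 0.18 in mice 1 to 4, above and below 0 in 2 mice each. Its probe cannot be assigned to Ccl21a alone, since near-identical Ccl21 copies exist. Ccl19, which binds the same receptor, was at 0.41 ± 0.33 (SD, n = 4), with a further probe at 0.22 that did not pass (adjusted p = 0.297). Its brightest probe had a mean log2 intensity of 16.3, and the 99 kept probes above 16 had a median log2 ratio of 0.24. Cxcl12 was at -0.40 ± 0.47 (SD, n = 4), with a further Cxcl12 probe at -0.66 that passed (adjusted p = 0.0425). Without mouse 3 the mean of the first Cxcl12 probe was -0.21.

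In the adhesion and transmigration list 2 of 11 genes were lower and none was higher. Icam1, which encodes the ligand of the integrin LFA-1, was at -0.47, -0.42, -0.37 and -0.32 in mice 1 to 4 (mean -0.40 ± 0.07, SD, n = 4; adjusted p = 0.0221), and the junctional glycoprotein gene Cd99 at -0.26 ± 0.11 (adjusted p = 0.0475). Vcam1 (-0.45 ± 0.29), F11r (-0.33 ± 0.21) and Icam2 (0.13 ± 0.06; SD, n = 4 each) did not pass. Around Enpp2, 1 of 15 genes of the lysophosphatidic acid and sphingosine 1-phosphate axis was lower and none was higher. This was Sgpl1, the sphingosine phosphate lyase gene, at -0.23 ± 0.03 (adjusted p = 0.0383), with a further probe at -0.43. The receptor genes Lpar6 (-0.03 ± 0.30) and S1pr1 (0.24 ± 0.15; SD, n = 4 each) did not pass. Both list counts, 2 of 11 and 1 of 15, stand beside 4.92% of all kept probes called lower.

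Among 16 genes of the lymphotoxin receptor pathway and other inducers of these vessels, 2 were lower and none was higher. Ltbr, the lymphotoxin beta receptor gene, was at -0.28, -0.17, -0.50 and -0.44 in mice 1 to 4 (mean -0.35 ± 0.15, SD, n = 4; adjusted p = 0.0425), and the other was Clec1b, given above. The ligand gene Ltb was at 0.05 ± 0.23, the transcription factor genes Relb at -0.20 ± 0.09 and Nfkb2 at -0.18 ± 0.07, and Nr2f2, which encodes a venous endothelial transcription factor, at -0.42 ± 0.47 (SD, n = 4 each). None of these 4 passed, and without mouse 3 the Nr2f2 mean was -0.27. On the lymphocyte side none of 11 genes passed. Selplg was at -0.16 ± 0.17, Itgb7 at -0.07 ± 0.12 and Klf2 at -0.0060 ± 0.15 (SD, n = 4 each). The lists named here were chosen with earlier results of these data known, and their counts are a description. They stand beside 4.92% of all kept probes called lower and 2.99% called higher.

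**Figure D4:**
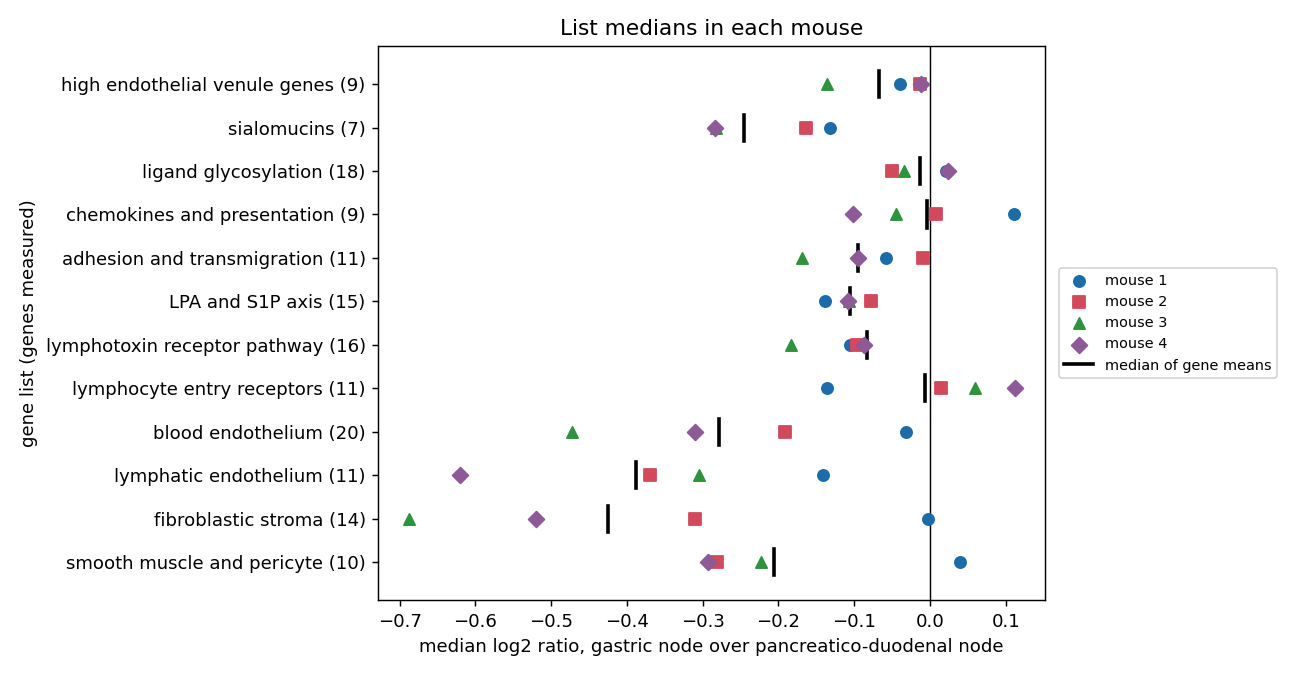
Median log2 ratio of each gene list in each of 4 mice (symbols) and the median of the gene means (black line), with the number of measured genes in parentheses. The high endothelial venule genes lie at -0.07, and blood endothelium at -0.28, with lymphatic endothelium and fibroblastic stroma farther below 0.

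Lists of other cell types in the nodes were counted in the same way, beside 4.92% of all kept probes called lower and 2.99% higher. Lymphatic endothelium had 5 of 11 genes lower (median -0.39), fibroblastic stroma 6 of 14 (median -0.42), macrophages 6 of 10 (median -0.81) and smooth muscle and pericytes 2 of 10 (median -0.21), with none higher in these 4 lists. T cell genes had 2 of 12 higher and none lower (median 0.11), and neutrophil genes 1 of 5 higher and none lower (median -0.65). None of 12 B cell, 5 erythroid, 10 adipocyte and 18 exocrine pancreas genes passed.

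Over 13199 other named genes, the profile most like that of Glycam1, by Euclidean distance over the log2 ratios of the 4 mice, was that of Ms4a4b, at 0.72, 0.55, 0.21 and 0.65 (distance 0.197). Lrp2 (0.210), Slfn9 (0.260), Tnfsf8 (0.354) and Rpl5 (0.354) followed. Mouse 3 had the lowest value in each of the 5, which follows from choosing them for likeness to Glycam1.

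**Figure D5:**
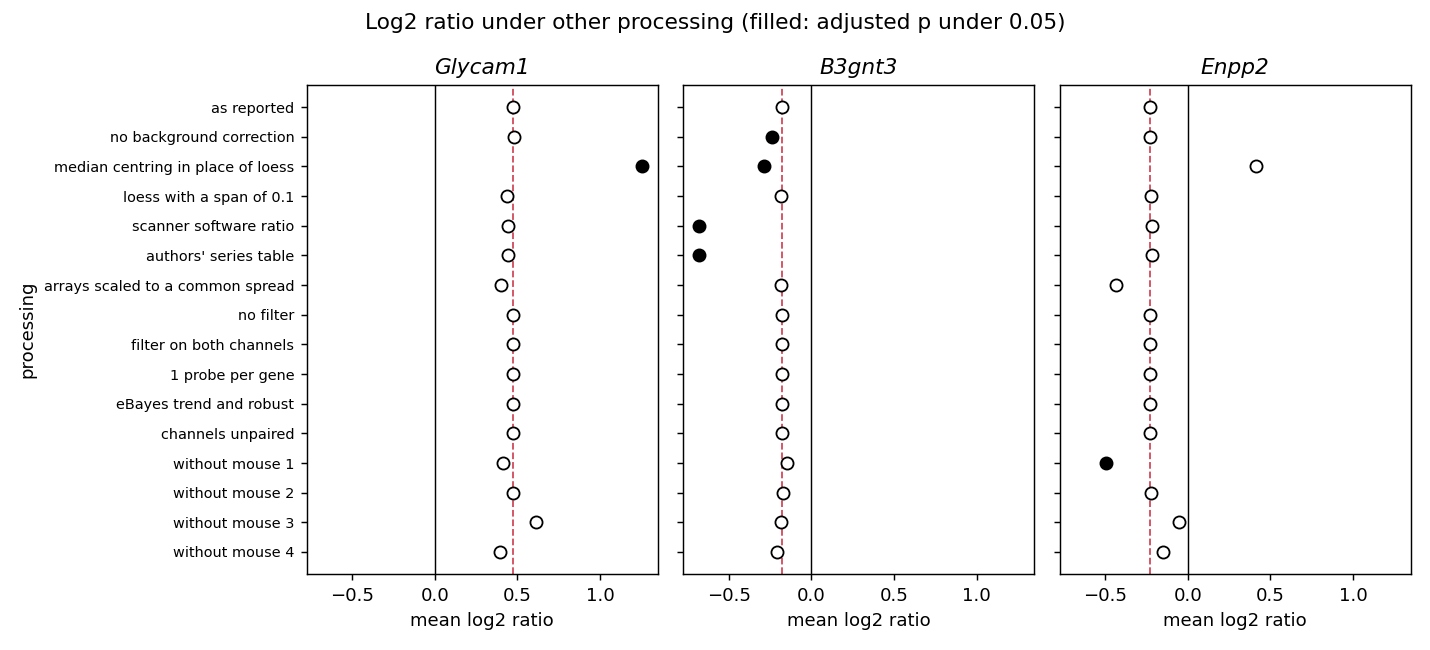
Mean log2 ratio of Glycam1, B3gnt3 and Enpp2 as reported (dashed line, top row) and under 15 other ways of processing, with filled points where the adjusted p was under 0.05. Glycam1 stays above 0 and B3gnt3 below 0 in every row, while Enpp2 lies above 0 with median centring.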

How the data were processed

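Gastric node (Cy5, red) and pancreatico-duodenal node (Cy3, green) RNA of 4 mice was amplified, labelled and put together on an Agilent array, 1 for each mouse, as the labels' protocols state. The authors deposited scanner files with mean, background and processed spot intensity, made with Agilent Feature Extraction 10.2.1.3, per the file headers, and with the log10 ratio of red over green. The authors' deposited series table holds log2 ratios, which equalled the mean log2 ratio of processed signals over a probe's spots within 5.1e-05 and whose column medians were -0.15, -0.06, -0.03 and -0.03.

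Background was corrected by normexp with an offset of 50, from each spot's mean signal and its background median, and loess followed within each array (R 4.3.3 with limma 3.58.1; data.table package, version 1.17.8). Control and flagged spots had weight 0, and flagged spots were left out. The offset draws ratios of dim probes towards 0. Spots of a probe were averaged (41174 probes), and 27603 were kept because one channel read them well above background on 3 or more of 4 arrays. Names came from transcript accessions through RefSeq (GRCm38.p6, names only), which named 24844 probes. Limma's lmFit and eBayes set each kept probe's mean log2 ratio against 0, with Benjamini-Hochberg adjustment over all kept probes, at 0.05. Intensities by node were taken after Aquantile. Lists use each gene's brightest kept probe. Steps were tested on simulated data.

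The members and lists were chosen with earlier results of these data known. The text names every member, and from each vessel pathway list up to 6 called genes and the 3 brightest, from blood endothelium up to 3 of each, and a fixed set of genes, of which 1 is not reported here. Alternatives covered background correction, normalization, filter, probe choice, variance model, pairing, threshold, the series table and each mouse left out. Probe sequences were not used here.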

Additional observations from a re-analysis of the deposited data

Results flagged for a closer look

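Of 71 values tested for a single mouse far from the others (Dixon's ratio of the gap to the range, 4 mice, at its 95% critical value), 2 stood out, and chance gives about 1 in 20. No probe of a high endothelial venule gene was among them. B4galt1 had a Dixon ratio of 0.892, with mouse 1 at 0.12 and mice 2 to 4 between 0.22 and 0.23. Itgb7 had a Dixon ratio of 0.834, with mouse 1 at -0.26 and the other mice between -0.03 and 0.02.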

How the results depend on the processing

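With 4 mice and no dye swap, the data cannot separate dye from node, and dim probes such as B3gnt3 are compressed by the offset. No member was called with a loess span of 0.1, scaled arrays, either other filter, 1 probe per gene, the trend and robust variance model or unpaired channels (no replicate block), nor without mouse 2, 3 or 4. The count of called member probes was 0 to 1 over the mice left out, the 1 being Enpp2 without mouse 1. It was 1 without background correction, 1 with the scanner software's ratio and 1 with the authors' series table (B3gnt3 each time, at -0.24, -0.68 and -0.68), and 2 at an adjusted p under 0.1 (Glycam1 and B3gnt3).

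The count over all probes, 2185, was 1232 with the scanner software's ratio, 1233 with the series table, 1237 without the replicate block, 5279 at an adjusted p under 0.1 and 0 to 3052 over the mice left out (0 without mouse 2, with 5580 at an unadjusted p under 0.05, then 5 without mouse 3 and 3 without mouse 4). It was 0 in limma both with scaled arrays (7080 at an unadjusted p under 0.05) and with the trend and robust model (8517). The 14 calls described from the vessel pathway lists, blood endothelium and the fixed set were lost under both settings. Relative to blood endothelium, 2 member probes passed with the scanner software's ratio, 2 with the series table, 3 with median centring (Glycam1 and Fut7 higher, B3gnt3 lower), 0 with scaled arrays (2 at an unadjusted p under 0.05) and 1 to 5 over the mice left out.

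Median centring in place of loess moved the median of all kept probes to 0.29, against 0.02. The count of calls moved to 18967 (16108 higher and 2859 lower, against 826 and 1359), with 8 member probes among them (7 higher and 1 lower). Values that passed in either setting turned sign there for Chst2 (0.19, brighter probe), Fut4 (0.30), Ackr1 (0.37 and 0.23), Madcam1 (0.28), Slc35c1 (0.54), Ccl21a (0.77), Icam1 (0.080), Cd99 (0.31), F11r (0.27), Sgpl1 (0.32), Lpar6 (0.56), Ltbr (0.15), Relb (0.42), Nfkb2 (0.40), Klf2 (0.80), Itgb7 (0.67), Selplg (0.51), Plvap (0.054), Eng (0.022), Mmrn2 (0.24), Egfl7 (0.42), Cdh5 (0.46) and Pecam1 (0.24). With the shift of the median from 0.02 to 0.29 subtracted, Glycam1 was at 0.98, Fut7 at 0.37 and B3gnt3 at -0.56. The brighter Chst2 probe (-0.08) and the dimmer Ackr1 probe (-0.04) were again below 0 on that scale, and Fut4 (0.03) and the brighter Ackr1 probe (0.10) were not. The cause was not tested.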

Other observations

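Enpp2 was picked here because of its own spread, with its values known. The nearest of 13199 other named genes, by Euclidean distance over the 4 log2 ratios, were Qk (0.110), Armcx1 (0.123), Pls3 (0.144), Pla2g4a (0.154) and Sparcl1 (0.173). Sparcl1, a matricellular gene, was at 0.64, -0.18, -0.87 and -0.54 in mice 1 to 4, against 0.56, -0.25, -0.77 and -0.46 for Enpp2. Emcn, at 0.36, -0.16, -0.87 and -0.23, and Nr2f2, at 0.13, -0.18, -0.86 and -0.75, were likewise above 0 in mouse 1 alone and lowest in mouse 3. The brightest Cxcl12 probe had the same order of mice as Enpp2, with 0.11 in mouse 1, but the further probe, which passed, did not, with -0.42 in mouse 1 and in mouse 2. Glycam1, at 0.66, 0.48, 0.05 and 0.71, shared the low value in mouse 3 but not the negative values of mice 2 and 4.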
